A study of Canis lupus familiaris with 29 samples.

Results

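CSF3R, ITGAM, MMP9 and SERPINA1 are 4 genes that neutrophils express, and their levels were followed in lymph nodes of dogs with large B-cell lymphoma before treatment (Day 0) and on Day 4 of treatment with valspodar, a blocker of the drug pump ABCB1, or with placebo. They are 4 of the 24580 genes in the deposited expression table, where they are listed as ENSCAFG00000003376 (CSF3R), ENSCAFG00000016881 (ITGAM), ENSCAFG00000009905 (MMP9) and ENSCAFG00000017646 (SERPINA1). The study had picked them from the Day 4 against Day 0 comparison of the placebo dogs. Their differences between placebo libraries are therefore given as a description, with no test. Tests on them use valspodar dogs, which that comparison left out, or labels of the dogs that it did not use. Taking these 4 from the list was a choice made here with earlier results of these data known. The tests are therefore not fully independent of the choice.

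The animals were pet dogs with newly diagnosed disease and no earlier therapy for lymphoma, and the 29 libraries came from 15 dogs. The placebo group had 6 libraries at Day 0 and 5 at Day 4 (6 dogs, aged 5.3 to 10.4 years in the 5 dogs whose age was stated). The valspodar group had 9 libraries on each day (9 dogs, aged 3.8 to 11.6 years, given 7.5 mg/kg per dose by mouth). Both days were measured in 14 dogs, and placebo dog PD04 had Day 0 only. Placebo dogs received capsules without the drug. Doxorubicin chemotherapy began on Day 4 in both groups and was repeated in later cycles. Day 0 tissue was an incisional wedge and Day 4 tissue a tru-cut core, so the day and the kind of biopsy cannot be told apart in either group. Levels are FPKM, fragments scaled to exon length and to the fragments mapped in the library, which allows genes of different length to be compared.

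Neutrophils are short-lived white cells that leave the blood for inflamed or injured tissue, and they are scarce in a resting lymph node. CSF3R is the receptor for granulocyte colony-stimulating factor, the cytokine that drives their production and survival. ITGAM (CD11b) is the alpha chain of the integrin Mac-1, with which neutrophils grip ICAM1 on vessel walls. MMP9 is a gelatinase that neutrophils carry in granules and release to digest matrix, and SERPINA1 (alpha-1 antitrypsin) is the inhibitor of neutrophil elastase. Neutrophils are not the only source of these transcripts: monocytes and macrophages also express ITGAM, MMP9 and SERPINA1, and the liver makes most of the body's SERPINA1. In bulk tissue, fewer cells of a type and less RNA per cell cannot be told apart.

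The name of the gene set and the tissue could not be checked with other markers. Of 82 marker genes in 9 lists of blood, stromal and lymphoid cell types, 3 could be matched to an identifier (C1QB, C1QC and CD5L, all macrophage genes), and no further neutrophil gene and no B cell gene was among them. C1QB was measured at 3.88 to 177 FPKM over the 29 libraries. FPKM gives no read counts, so depth was estimated only relative to the median library. It lay between 0.849 and 1.80 in 28 libraries, and the lowest estimate was 0.325 for dog MN02 at Day 4, a rough value since it rests on the steps of low FPKM values. Between 9.86% and 40.6% of the FPKM sum belonged to the top 10 genes, and the highest share was that of dog PENN04 at Day 4.

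All 4 genes varied widely between libraries. The SD of log2(FPKM + 1) over the 29 libraries was 1.68 for SERPINA1, 1.52 for CSF3R, 1.36 for MMP9 and 0.82 for ITGAM, against a median of 0.35 over the 11677 genes that averaged 1 FPKM or more. In order of SD they ranked 265th, 329th, 438th and 1328th of those genes. SERPINA1 was the most abundant, with a median of 5.43 FPKM, followed by CSF3R with 3.06 FPKM, MMP9 with 1.53 FPKM and ITGAM with 1.10 FPKM. All 4 genes were highest in the same library, dog PENN04 on placebo at Day 4. That library held 64.8% of the MMP9 signal summed over all libraries, 31.7% of that of CSF3R, 30.9% of that of SERPINA1 and 26.8% of that of ITGAM. At the other end, MMP9 was below 1 FPKM in 14 libraries and ITGAM in 13, while CSF3R was below 1 FPKM in 4 and SERPINA1 in 3. Of the 8 libraries with the highest level of each gene, 6 were shared by all 4 genes: both days of MN03 and of MN08, Day 4 of MN07 and Day 4 of PENN04. Of the 8 lowest, 3 were shared: both days of PENN03 and Day 0 of PD01.

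CSF3R, the growth factor receptor, ranged from 1.16 to 23.4 FPKM (median 1.58, n = 6) at Day 0 in placebo dogs, and dog MN08 was the highest. At Day 4 the 5 placebo dogs had 1.09 (PENN05), 7.39 (MN09), 7.84 (MN05), 27.5 (MN08) and 72.8 FPKM (PENN04). In valspodar dogs it ranged from 0.0174 to 15.3 FPKM (median 1.52, n = 9) at Day 0 and from 0.445 to 14.5 FPKM (median 3.26, n = 9) at Day 4, with PENN03 the lowest and MN03 the highest on both days. The 4 groups overlapped, and the order of their medians was placebo Day 4, valspodar Day 4, placebo Day 0 and valspodar Day 0.

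SERPINA1, the elastase inhibitor, had the same order of group medians as CSF3R. At Day 0 it ranged from 2.24 to 37.3 FPKM (median 4.99, n = 6) in placebo dogs, with MN08 again the highest. The 5 placebo dogs at Day 4 had 2.59 (PENN05), 12.9 (MN09), 18.7 (MN05), 44.8 (MN08) and 134 FPKM (PENN04). Valspodar dogs had 0.178 to 29.2 FPKM (median 3.19, n = 9) at Day 0 and 1.07 to 26.6 FPKM (median 5.81, n = 9) at Day 4, and PENN03 and MN03 were again the lowest and the highest on both days.

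ITGAM, the integrin chain, was the least abundant and the least variable of the 4 genes. It ranged from 0.429 to 3.82 FPKM (median 1.15, n = 6) in placebo dogs at Day 0, and at Day 4 the placebo dogs had 0.994 (PENN05), 1.12 (MN09), 1.83 (MN05), 4.12 (MN08) and 14.3 FPKM (PENN04). In valspodar dogs it ranged from 0.0680 to 3.51 FPKM (median 0.857, n = 9) at Day 0 and from 0.116 to 2.49 FPKM (median 1.10, n = 9) at Day 4. Its group medians ran from placebo Day 4 through placebo Day 0 and valspodar Day 4 to valspodar Day 0, and neighbouring groups overlapped throughout.

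MMP9, the granule protease, had 1 extreme library. At Day 0 it ranged from 0.147 to 7.56 FPKM (median 1.47, n = 6) in placebo dogs, and at Day 4 the placebo dogs had 0.317 (PENN05), 2.2 (MN05), 2.37 (MN09), 7.13 (MN08) and 111 FPKM (PENN04). In valspodar dogs it ranged from 0.139 to 7.15 FPKM (median 0.691, n = 9) at Day 0 and from 0.329 to 3.43 FPKM (median 0.885, n = 9) at Day 4. The order of its group medians was that of ITGAM. The placebo mean at Day 4 was 24.6 ± 48.4 FPKM (SD, n = 5), and it was 3.003 ± 2.90 FPKM (SD, n = 4) without PENN04.

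**Figure D1:**
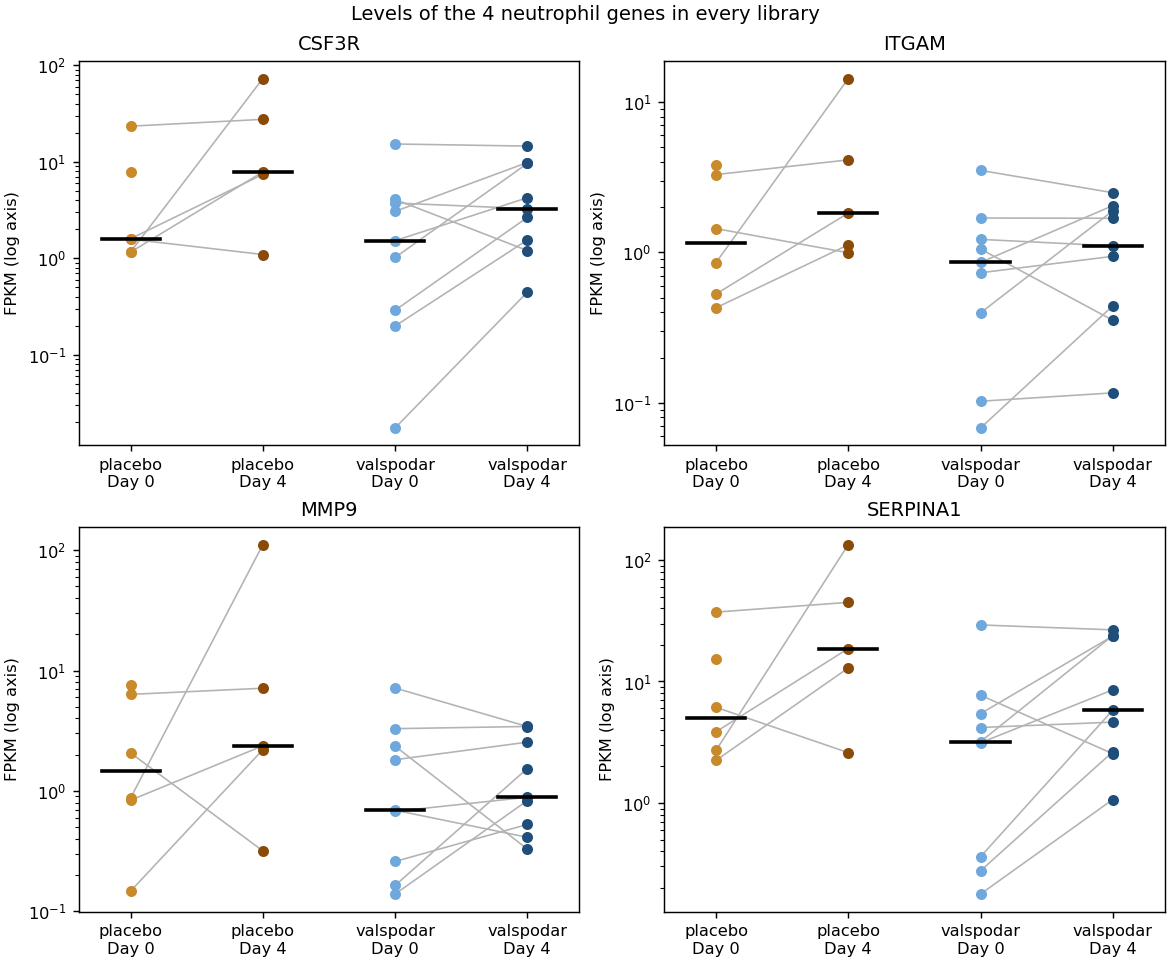
FPKM (log axis) of CSF3R, ITGAM, MMP9 and SERPINA1 in every library, by treatment and day; each point is 1 library, grey lines join the Day 0 and Day 4 libraries of a dog and black bars are group medians. The groups overlap for every gene, and 1 placebo library at Day 4 (PENN04) is highest in all 4 panels, with 111 FPKM of MMP9 and 72.8 FPKM of CSF3R.

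Paired libraries gave the direction of each gene in each dog. In placebo dogs, whose comparison listed the genes, all 4 were higher at Day 4 in 4 dogs and all 4 were lower in 1 dog, PENN05. Each gene was thus higher in 4 of 5 dogs, which 22.5% of the genes tested matched or exceeded, and nothing is read from that count. The largest changes were those of PENN04, from 1.16 to 72.8 FPKM for CSF3R (62.6-fold), from 2.71 to 134 FPKM for SERPINA1 (49.4-fold), from 0.856 to 14.3 FPKM for ITGAM (16.7-fold) and from 0.874 to 111 FPKM for MMP9 (127-fold). On the log2(FPKM + 1) scale, the differences of the group means, Day 4 minus Day 0, were 1.55 (SE 0.94) for CSF3R, 1.51 (SE 0.93) for SERPINA1, 1.14 (SE 1.04) for MMP9 and 0.70 (SE 0.55) for ITGAM. Without PENN04 they were 0.71 for CSF3R, 0.65 for SERPINA1, 0.13 for ITGAM and -0.02 for MMP9. These differences include PD04, which had no Day 4 library. With the dog as a block, which uses paired dogs only, they were 1.75 for CSF3R, 1.72 for SERPINA1, 1.44 for MMP9 and 0.89 for ITGAM. Without PENN04 the blocked values were 0.91 for CSF3R, 0.85 for SERPINA1, 0.36 for ITGAM and 0.32 for MMP9. The blocked fit also lacks PD04, and leaving out PD04 alone, with no block, gave the same 1.44 for MMP9. The sign of MMP9 without PENN04 thus differed between the fits with and without PD04. The Day 4 library of PENN04 was also the highest in CTSK, a collagen-degrading protease of macrophages and osteoclasts, with 198 FPKM, and the 3 matched macrophage genes went from 5.33 to 37.2 FPKM (C1QB), from 9.07 to 64.6 FPKM (C1QC) and from 2.84 to 28.8 FPKM (CD5L) between its days. The part of other cell types in the PENN04 values was not tested.

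Valspodar dogs, which were not in the placebo comparison that listed the genes, addressed whether the 4 genes also differed between the days under the drug. In limma on log2(FPKM + 1), 0 of 11677 genes (0%) passed an adjusted p of 0.05, and 157 had an unadjusted p under 0.05. The log2 differences of the members, Day 4 minus Day 0, were 1.01 (SE 0.65) for SERPINA1, 0.73 (SE 0.55) for CSF3R, 0.15 (SE 0.28) for ITGAM and 0.02 (SE 0.38) for MMP9, each with an adjusted p of 1 in limma. This fit leaves out the pairing of the days within dogs. Its 95% intervals reached from -0.35 to 2.36 for SERPINA1, from -0.42 to 1.87 for CSF3R, from -0.45 to 0.74 for ITGAM and from -0.79 to 0.82 for MMP9. The same fit found 0 genes (0%) in placebo dogs, with 430 at an unadjusted p under 0.05. That count is not a check of the study's list, which came from another test, Cuffdiff at an adjusted p under 0.05.

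The 2 libraries of a dog resembled each other, and a fit with the dog as a block had smaller standard errors. For the same log2 differences they were 0.38 for SERPINA1, 0.32 for CSF3R, 0.16 for ITGAM and 0.23 for MMP9. With this block, SERPINA1 had an unadjusted p of 0.0230 and CSF3R of 0.0476 in limma, with adjusted p of 0.419 and 0.440, so neither passed. Being higher at Day 4 with an unadjusted p under 0.05 in the blocked fit was seen for 4.98% of all genes tested. ITGAM and MMP9 were not among them, with an unadjusted limma p of 0.389 and 0.942. When each dog was left out of the blocked fit, the unadjusted limma p of SERPINA1 ran from 0.00239 without PD03 to 0.0598 without PD01, and that of CSF3R from 0.00592 without PD03 to 0.115 without PD05.

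SERPINA1 was higher at Day 4 in 7 of 9 valspodar dogs, a count that 11.4% of the genes tested reached. CSF3R and MMP9 were higher in 6 of 9 dogs, which 26.2% of genes reached, and ITGAM in 5 of 9, which 46.6% reached. All 4 genes were higher in 4 dogs, and all 4 were lower in 2 dogs, MN03 and PD03. The largest change of CSF3R and SERPINA1 on the log2 scale was that of PD05, from 1.02 to 9.60 FPKM of CSF3R and from 3.19 to 23.9 FPKM of SERPINA1. The macrophage genes also went up in PD05, from 41.1 to 177 FPKM for C1QB, from 96.9 to 415 FPKM for C1QC and from 4.72 to 83.2 FPKM for CD5L, and its Day 4 library was the highest of all 29 in these 3 genes. Their part in the change of the neutrophil genes was not tested. The largest fall was that of PD03, from 4.07 to 1.20 FPKM of CSF3R and from 7.71 to 2.54 FPKM of SERPINA1. Dogs whose identifiers begin with MN, which may mark the trial site, had a mean SERPINA1 change of 0.93 ± 0.90 (SD, n = 5) and the other dogs one of 1.10 ± 1.78 (SD, n = 4). For CSF3R the values were 0.67 ± 0.72 and 0.80 ± 1.54. For MMP9 they were -0.12 ± 0.48 and 0.19 ± 1.07, and for ITGAM 0.09 ± 0.40 and 0.23 ± 0.69.

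**Figure D2:**
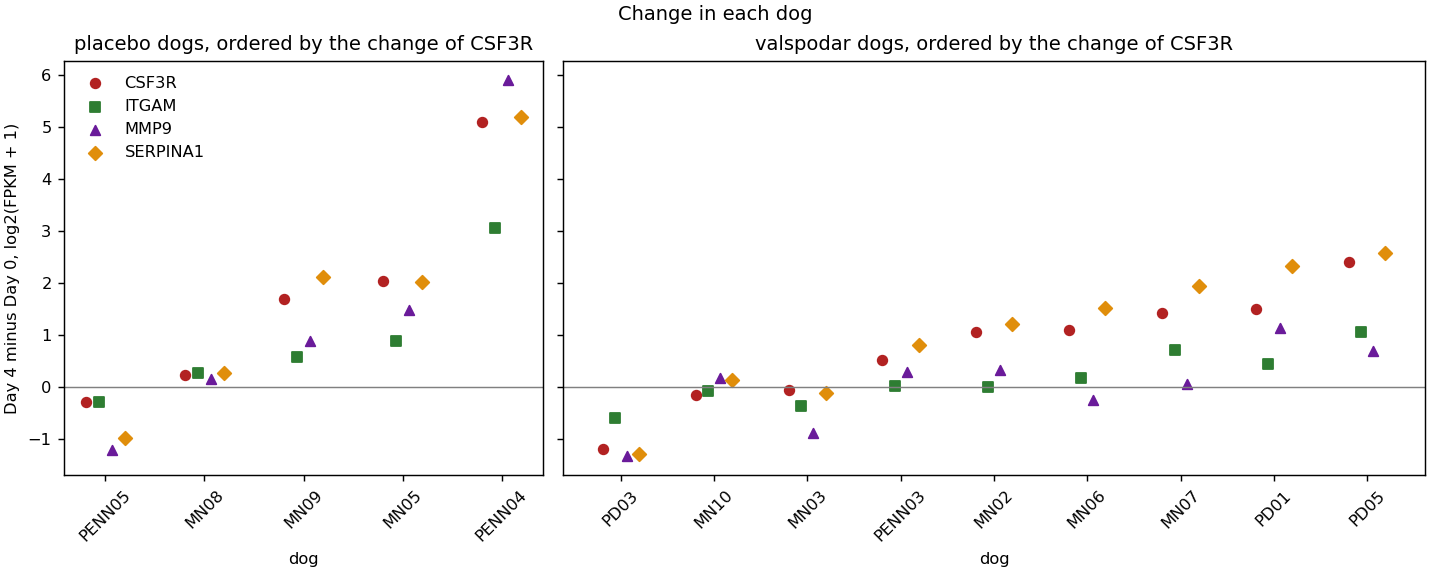
Change from Day 0 to Day 4, in log2(FPKM + 1), of the 4 genes in each dog with both libraries, for 5 placebo dogs (left) and 9 valspodar dogs (right), with dogs ordered by the change of CSF3R and 1 symbol for each gene. PENN04 is highest, with 5.09 for CSF3R and 5.90 for MMP9, and the genes also differ within a dog, as in MN07 with 0.05 for MMP9 and 1.94 for SERPINA1.

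The levels of the 4 genes rose and fell together across the libraries. Over all 29 libraries, Spearman's rho of log2(FPKM + 1) was 0.952 between CSF3R and SERPINA1, 0.887 between ITGAM and SERPINA1, 0.886 between CSF3R and ITGAM, 0.855 between CSF3R and MMP9, 0.834 between ITGAM and MMP9 and 0.824 between MMP9 and SERPINA1. These are descriptions, since libraries of a dog are not independent and 11 of the libraries are those of the placebo dogs. Among 11676 other genes, SERPINA1 was the 2nd closest to CSF3R, ITGAM the 14th and MMP9 the 17th. The median gene had a rho of -0.02 with CSF3R, and 27 genes (0.231%) reached 0.8. Without dog PENN04 the 6 values were 0.808 to 0.954 over 27 libraries.

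**Figure D3:**
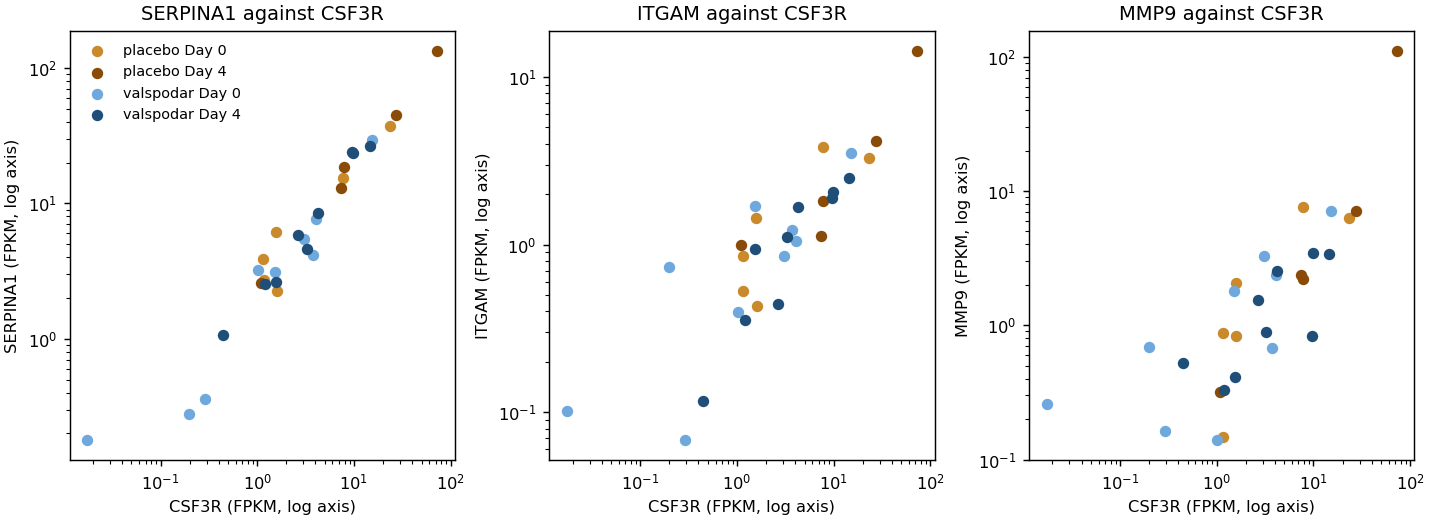
FPKM of SERPINA1, ITGAM and MMP9 against that of CSF3R in 29 libraries (log axes), coloured by treatment and day. SERPINA1 keeps closest to CSF3R (rho 0.952), while MMP9 is more scattered (rho 0.855).

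In valspodar dogs alone the covariation could be tested. Within this group 22 relations were tested by exact permutation over all pairings of 9 dogs (two-sided), 18 of them between pairs of the genes at Day 0, at Day 4 and in the change, and the other 4 between the Day 0 and Day 4 levels of 1 gene. Pearson's r was above 0.7 for all 18 pairs, and all 18 had an adjusted p under 0.05. Spearman's rho had an adjusted p under 0.05 for 12 of the 18. The change is computed from the Day 0 and Day 4 levels, so these sets are not separate evidence. The share of all gene pairs that would pass in these dogs was not computed. Over the 18 valspodar libraries, from 0.0601% (MMP9) to 0.275% (SERPINA1) of all genes reached a rho of 0.8 with a member. The member pairs had 0.798 to 0.963 there. The closest pair was CSF3R and SERPINA1, with r = 0.977 at Day 0, 0.989 at Day 4 and 0.983 for the change (exact permutation test, adjusted p = 0.000384, 0.000182 and 0.000182, n = 9). Their rho was 0.967, 0.967 and 0.983 (exact permutation test, adjusted p = 0.000728, 0.000728 and 0.000546, n = 9). Without the 2 dogs farthest from the median of CSF3R, r of this pair was 0.938, 0.987 and 0.978. For every pair the 2 dogs left out were those farthest in its first gene, in the order CSF3R, ITGAM, MMP9, SERPINA1. They therefore differ between pairs and days.

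The changes of ITGAM followed those of CSF3R and SERPINA1. Its change had an r of 0.934 with that of CSF3R and of 0.925 with that of SERPINA1 (exact permutation test, adjusted p = 0.00179 for both, n = 9), with rho of 0.950 and 0.967 (exact permutation test, adjusted p = 0.00129 and 0.000728). Without the 2 farthest dogs, which differ between these pairs, r was 0.838 and 0.973. At Day 0, r of ITGAM with CSF3R was 0.867 in all 9 dogs and 0.612 without the 2 farthest (exact permutation test, p = 0.146, n = 7).

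MMP9 had the lowest correlations of the 4 for the change. The change of MMP9 had an r of 0.787 with CSF3R, 0.733 with ITGAM and 0.838 with SERPINA1 (exact permutation test, adjusted p = 0.0189, 0.0320 and 0.00775, n = 9). In ranks, rho was 0.683, 0.633 and 0.733, with adjusted p of 0.0692, 0.0929 and 0.0527 (exact permutation test, n = 9), so none passed. Without the 2 dogs farthest from the median of the first gene, r of the MMP9 change was 0.555 with CSF3R and 0.498 with SERPINA1. With ITGAM it was 0.911 (exact permutation test, p = 0.00694, n = 7). These values rest on different dogs and are not compared. PD03 and PD05 were left out for CSF3R, PD03 and MN03 for SERPINA1, and PD05 and MN07 for ITGAM. PD03, with the largest fall of MMP9, thus stayed in only for ITGAM. Over the 18 pairs, 8 kept an unadjusted exact permutation p under 0.05 for r without the 2 dogs left out for that pair (n = 7). Of these, 1 was at Day 0, 3 at Day 4 and 4 in the change. With 7 dogs an r near 0.65 does not pass (CSF3R and MMP9 at Day 4, r = 0.648, exact permutation test, p = 0.123). A lost p alone therefore does not show that a relation rested on the dogs left out. Correlations within a prefix were not computed, since neither MN dogs (n = 5) nor other dogs (n = 4) reached the minimum of 6 dogs set for a correlation.

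For none of the genes did the Day 0 and Day 4 levels of the dogs correlate past the threshold. The r between Day 0 and Day 4 was 0.617 for CSF3R, 0.655 for ITGAM, 0.639 for MMP9 and 0.627 for SERPINA1 (exact permutation test, adjusted p from 0.0622 to 0.0752, n = 9). Spearman's rho was 0.383 to 0.550 (exact permutation test, adjusted p from 0.154 to 0.313, n = 9). Without the 2 dogs farthest from the median of the gene at Day 0, r was 0.0490 to 0.414.

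The ratio between the genes was steadiest for SERPINA1 over CSF3R. In the 25 libraries with at least 1 FPKM of CSF3R, its median was 1.97 and it ranged from 1.12 to 3.89, while CSF3R itself spanned the values from 1.02 to 72.8 FPKM. The ratio of ITGAM to CSF3R had a median of 0.280 and ranged from 0.141 (MN08 Day 0) to 1.11 (MN02 Day 0). The ratio of MMP9 to CSF3R had a median of 0.321 and ranged from 0.0865 (PD05 Day 4) to 1.53 (PENN04 Day 4). Its highest value was thus 17.6 times its lowest, against 7.90 times for ITGAM and 3.48 times for SERPINA1. Over all 29 libraries, with CSF3R as low as 0.0174 FPKM, the spans were 172 times for MMP9, 41.8 times for ITGAM and 9.14 times for SERPINA1, each with its highest ratio in PENN03 at Day 0.

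Of the genes that are not members, 1 identifier, ENSCAFG00000023401, was among the 5 of highest rho for each of the 4 over the 29 libraries, and it had no symbol in the tables used here. Its rho was 0.974 with CSF3R and 0.916 with ITGAM, where it ranked 1st, and 0.951 with SERPINA1 and 0.852 with MMP9, where it ranked 3rd. It was not among the 5 closest to MMP9 in valspodar libraries alone, nor in the 27 libraries without dog PENN04. In placebo libraries alone it was not among those closest to ITGAM and SERPINA1. Placebo dogs had 0.784 to 18.9 FPKM of it (median 1.11) before treatment and 0.919 to 48.5 FPKM (median 5.66) on Day 4. Valspodar dogs had 0 to 14.0 FPKM (median 1.22) before treatment and 0.208 to 10.1 FPKM (median 2.77) on Day 4. The 5 closest genes of the 4 members made up 10 distinct identifiers, 2 of them members themselves and 8 without a symbol here.

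Genes that act with neutrophils or mark macrophages had lower correlations with CSF3R over all libraries. These genes come from the lists of genes that the study called between the days, so their own changes are given without a test. Over the 29 libraries, CXCL8, the chemokine that draws neutrophils into tissue, had a rho of 0.683 with CSF3R and ranked 81st among all genes. FN1, the matrix protein fibronectin, followed with 0.623, IL18, an inflammatory cytokine of macrophages, with 0.533, and CTSK ranked 552nd. The urokinase gene PLAU had 0.373. ICAM1, the ligand of Mac-1, had a rho of 0.251 with CSF3R and of 0.360 with ITGAM. Within the groups the values differed from the pooled ones, as descriptions with no test of the difference. In the 11 placebo libraries, ITGAM had a rho of 0.909 with ICAM1 (25th of 11583 genes), above its 0.836 with CSF3R (107th), while in the 18 valspodar libraries ITGAM with ICAM1 was 0.197. CTSK had a rho of 0.734 with SERPINA1 in valspodar libraries (77th of 11649 genes) and of 0.436 in placebo libraries. C1QB had a rho of 0.585 with CSF3R and of 0.670 with SERPINA1 in valspodar libraries (388th and 179th of 11649 genes), against -0.05 and 0.218 in placebo libraries. Over all 29 libraries, the complement gene C1QB had a rho of 0.368 with CSF3R, the chemokine receptor CXCR4 had 0.06 and TNFAIP3, an inhibitor of NF-kB signalling, had -0.02.

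CXCL8 was highest at Day 0 in MN08, with 111 FPKM, the placebo library in which CSF3R and SERPINA1 were also highest at that day. At Day 4 CXCL8 in MN08 was 18.4 FPKM while CSF3R was 27.5 FPKM. In PENN04 at Day 4, where the 4 genes peaked, CXCL8 was 10.5 FPKM. In MN03 it went from 15.7 to 94.9 FPKM under valspodar, where CSF3R was 15.3 and 14.5 FPKM.

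**Figure D4:**
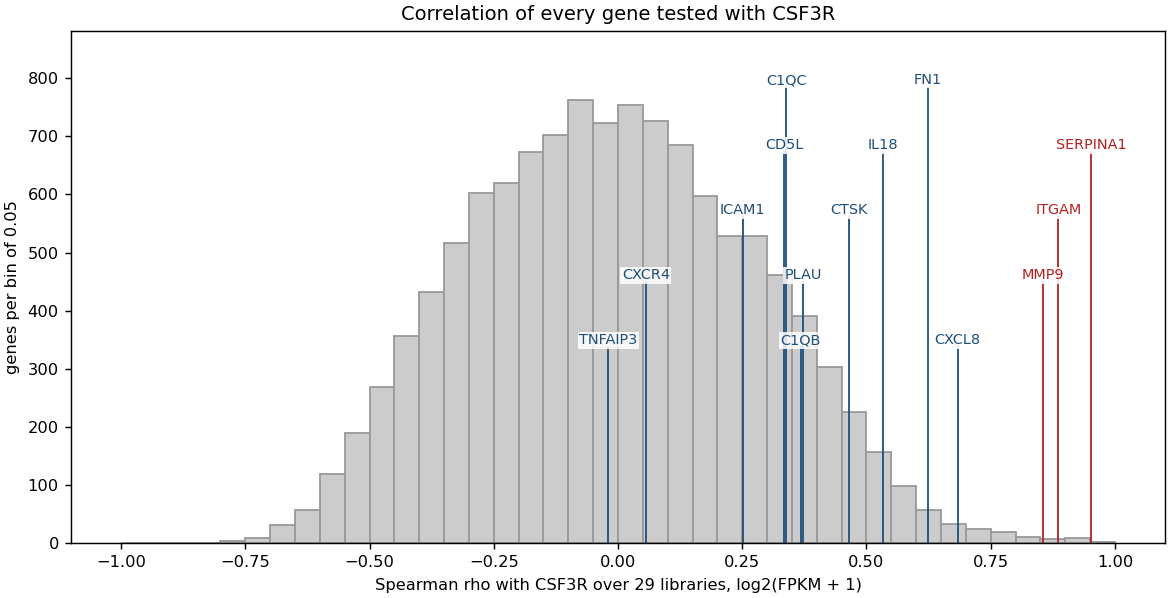
Spearman's rho with CSF3R over 29 libraries for 11676 genes (grey bars, number of genes in bins of 0.05), with the other 3 neutrophil genes marked in red and 11 other named genes in blue. The 3 neutrophil genes lie at the right end, from 0.855 to 0.952, and CXCL8 is the nearest of the other named genes with 0.683.

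The changes of these 11 genes were then set against those of the 4 members in valspodar dogs, which made 44 relations, chosen after the levels had been seen. None passed in ranks or in r (exact permutation test, n = 9, smallest adjusted p of 0.741 for rho and 0.588 for r, and 0 of 44 with an unadjusted p under 0.05 for either). For CSF3R, rho was 0.450 with C1QB, 0.417 with CD5L, 0.283 with IL18, 0.0667 with ICAM1, 0.0167 with CXCL8 and -0.483 with CXCR4 (exact permutation test, adjusted p from 0.741 to 0.982). The macrophage genes C1QB and C1QC had the highest rho with MMP9, 0.583 for both (exact permutation test, adjusted p = 0.741, n = 9). With 9 dogs, such intermediate values are not distinguished from 0. Single dogs went both ways. Among the 5 valspodar dogs with the largest CSF3R increases, C1QB went from 41.1 to 177 FPKM in PD05, from 39.2 to 117 FPKM in MN07 and from 22.6 to 97.1 FPKM in MN02, while it was 16.0 and 17.5 FPKM in PD01 and 7.64 and 3.88 FPKM in MN06. In PD03, the dog with the largest fall of CSF3R, C1QB went from 29.8 to 21.3 FPKM.

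**Figure D5:**
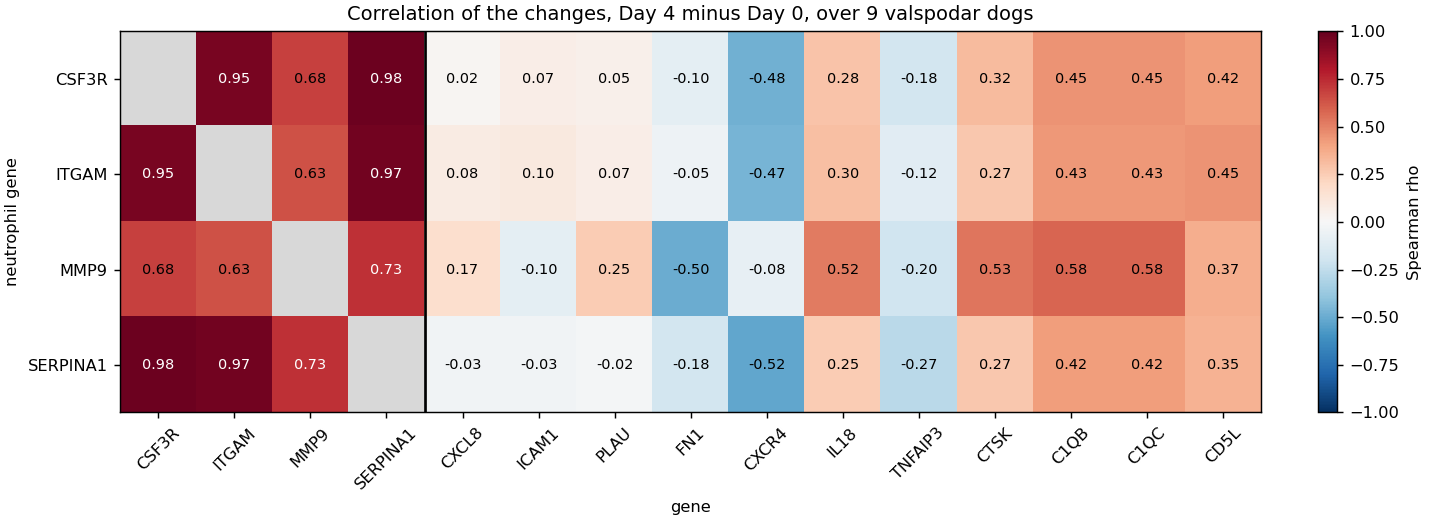
Spearman's rho between the changes (Day 4 minus Day 0, log2(FPKM + 1)) of each neutrophil gene and those of the other 3 and of 11 other named genes, over 9 valspodar dogs; the black line divides the 2 sets and grey cells are a gene with itself. Values among the neutrophil genes run from 0.633 to 0.983, and those with other genes from -0.517 to 0.583.

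Levels at Day 0, before treatment, were compared with the labels of the dogs, in a family of 12 relations. None had an unadjusted p under 0.05, and the smallest adjusted p was 0.572 (permutation tests). The closest was SERPINA1 with the length of remission, with a rho of -0.490 (permutation test, p = 0.0787, n = 14) and an r of -0.323 over the dogs with an uncensored remission (permutation test, p = 0.283). That rho was -0.301 without the 2 dogs farthest from the median remission. Dogs of both groups had doxorubicin chemotherapy from Day 4, so remission was not recorded under valspodar or placebo alone. For CSF3R, ITGAM and MMP9 rho with remission was -0.336, -0.323 and -0.262, and with age the 4 genes had rho of -0.213 to -0.07 (permutation tests, adjusted p from 0.572 to 0.808, n = 14). MN dogs had a median CSF3R of 2.33 FPKM (n = 8) and the others 1.16 FPKM (n = 7), a log2 difference of 0.78 (exact permutation test, adjusted p = 0.572).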

How the data were processed

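RNA of lymph node biopsies was sequenced in 29 libraries of 15 dogs. The authors trimmed the reads with Trimmomatic 0.33, mapped them to CanFam 3 with HISAT2 2.0.2, estimated abundance with Cuffquant (Cufflinks 2.2.1) with its correction for multiply mapped reads, and deposited FPKM values from Cuffnorm by its classic normalization, per library and without pooling. The table of the whole series was used. The sample files were not used, since 6 of them hold 2 tables.

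Groups and dogs were taken from the sample titles. The 11677 genes that averaged 1 FPKM or more were tested with limma 3.58.1 in R 4.3.3 on log2(FPKM + 1), adjusted by Benjamini-Hochberg, at a threshold of 0.05. Because of the pseudocount of 1, a log2 difference understates the fold change of a low gene. Libraries of a dog are pairs by their labels. Their deviations from the group means correlated across genes at 0.199 to 0.678 (median 0.504, 14 pairs). The main fits have no dog term, as the study's methods name none. Correlations were tested by exact permutation in Python 3.11.15 with numpy 2.4.6, or with 100000 resamples (seed 1) for the labels of dogs. A censored remission entered at its bound in ranks and was left out of r. Scripts were tested on simulated data.

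The 4 genes, the marker lists and the other named genes were chosen with earlier results of these data known. Named genes were the members, 8 genes of the study's tables with a role beside them, the listed markers that could be matched, and the 5 closest genes by rho for each member, of which 1 without a symbol is printed. FPKM values give no read counts, so count tests and counting errors could not be had, and the number of dogs limits the precision. Separate dogs are the replicates. Symbols for other identifiers, genome sequence and coordinates were not used here.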

Additional observations from a re-analysis of the deposited data

Results flagged for a closer look

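Each of the 4 genes was checked in valspodar dogs for a library far from the others at Day 0 and at Day 4 and for a dog far from the others in the change, 12 sets in all, by Dixon's ratio at the 95% level. None exceeded its critical value, where 0.6 sets would by chance. The nearest was the CSF3R level of MN03 at Day 0, with a ratio of 0.421 (n = 9). Placebo libraries were left out of this check, since their comparison listed the genes.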

How the results depend on the processing

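The members' log2 differences in valspodar dogs were recomputed with a pseudocount of 0.1, no filter, a minimum of 5 FPKM, quantile or median-ratio scaling, all 4 groups in 1 fit, robust eBayes, the dog as a replicate block and each dog left out. None passed an adjusted limma p of 0.05 in any fit that held the gene (ITGAM falls below the minimum of 5 FPKM and has no value there). SERPINA1 kept its sign with 0.91 to 1.49, CSF3R with 0.63 to 1.31 and ITGAM with 0.08 to 0.37, and with each dog left out they were 0.81 to 1.29, 0.52 to 0.97 and 0.03 to 0.24. MMP9 turned to -0.077 with quantile normalization. With each dog left out, with or without the block, it ran from -0.121 (without PD01) to 0.19 (without PD03), and it was -0.0663 without PD05, -0.0220 without MN02, -0.0155 without PENN03 and -0.00195 without MN10. The cause was not tested. With the paired fit, the block, 0 genes passed in either group. The genes at an unadjusted limma p under 0.05 rose from 157 to 1314 in valspodar dogs and from 430 to 805 in placebo dogs. The placebo block also leaves out PD04, and without PD04 the fit with no block had 269. The count of placebo genes past the threshold was 0 to 1 with each dog left out, the 1 without PENN05. In placebo dogs, the differences with each dog left out ran from 0.71 to 2.05 for CSF3R, 0.65 to 2.14 for SERPINA1, 0.13 to 0.94 for ITGAM and -0.02 to 1.72 for MMP9, lowest without PENN04 and highest without PENN05 in each gene. Of 22 correlations, 12 passed in ranks, 14 with a pseudocount of 0.1, 12 with median-ratio scaling and 6 without the 2 farthest dogs of each relation. With each dog left out 7 to 13 passed, and 7 were left both without MN03 and without PENN03. Without the 2 farthest dogs, rho between Day 0 and Day 4 turned to -0.286 for MMP9 and -0.0357 for SERPINA1. Of the 12 relations with labels at Day 0, 0 passed in any alternative. Leaving out dogs with the block was added after the data were seen.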
